A study of Mus musculus with 6 samples.

Results

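The regions described here are the stretches of open chromatin that stood among the strongest peaks of all 3 young macrophage libraries and of no old one. For each of the 6 libraries, the 50000 deposited peaks with the highest −log10 q were taken, and overlapping peaks were merged on chromosomes 1 to 19 and X into 66216 regions. Of these, 1716 regions held a top peak of young libraries 1, 2 and 3 and of no old library, which is 2.59% of the merged regions. The mirror selection, a top peak in all 3 old libraries and in no young one, gave 2177 regions (3.29%), and 33698 regions held a top peak in all 6 libraries. The regions were thus selected on the −log10 q ranks of these same 6 libraries, so every young and old value below is a description without a test.

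ATAC-seq uses a transposase, which inserts adapters where DNA is not wrapped tightly, to find open chromatin; the Omni-ATAC version was run here on 50000 cells per library. The cells were macrophages expanded in culture from the marrow of wild-type BALB/c mice, after removal of non-adherent cells, and carried the surface proteins F4/80, the product of Adgre1, and CD169, the product of Siglec1. The young group was aged 3 weeks and the old group more than 78 weeks, each with 3 numbered replicates. Whether the replicates came from separate animals is not given in the labels, and cells expanded in culture may differ from macrophages in the marrow. The series title links marrow age to the course of a B-cell leukaemia by way of CXCL13, a chemokine, and CXCR5, which binds it.

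In macrophages, accessible DNA far from start sites includes many enhancers, opened by the lineage factor PU.1 together with partners such as C/EBP, IRF and AP-1 proteins. Such distal sites are more specific to a cell state than promoters, many of which are open in most cell types. A nearest gene is a neighbour by position, and a region need not act on it.

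The label that these regions are found only in young cells did not hold for the full peak lists. All 1716 regions overlapped a deposited old peak of some strength, 1710 of them in all 3 old libraries and 6 in 2 of the 3. They are therefore called young strong-peak regions, and the contrast they carry is one of peak rank. Ranks come from lists of different lengths and place a peak within its own library, so a difference in rank is not a measured difference in accessibility.

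A few sequences show what this DNA looked like where it met a promoter. Of 32619 RefSeq promoter windows of GRCm38.p6, running from 250 bases before to 50 bases after a start site, 65 windows of 60 genes overlapped 59 young strong-peak regions. Printed below are the 250 upstream bases, 5′ to 3′ on the gene's strand, for the first 4 protein-coding genes by the weakest young rank, and for Tlr9 and Cx3cr1, which were chosen after their values were seen because they encode macrophage receptors. Capitals mark matches, on either strand, to AP-1 (TGANTCA), PU.1 (GAGGAA), C/EBP (TTGCNNAA), NF-kB, IRF, E-box (CACGTG), CRE (TGACGTCA), RUNX (TGTGGT), STAT (TTCNNNGAA) or TATA box (TATAAA) letters. No matches of different motifs overlapped in these windows.
Csf2rb2, chr15:78305722-78305971, minus strand: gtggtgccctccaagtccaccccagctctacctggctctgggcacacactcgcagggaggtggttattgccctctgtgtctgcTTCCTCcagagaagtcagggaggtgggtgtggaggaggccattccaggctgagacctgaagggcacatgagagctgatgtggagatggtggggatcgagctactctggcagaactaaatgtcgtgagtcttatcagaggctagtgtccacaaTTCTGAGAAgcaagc
Armh4, chr14:49783384-49783633, minus strand: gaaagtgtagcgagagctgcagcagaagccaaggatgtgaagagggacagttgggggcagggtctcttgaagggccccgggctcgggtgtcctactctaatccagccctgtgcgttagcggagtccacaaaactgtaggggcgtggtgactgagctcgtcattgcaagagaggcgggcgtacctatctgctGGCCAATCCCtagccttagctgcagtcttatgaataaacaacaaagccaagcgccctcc
Dennd1b, chr1:138967471-138967720, plus strand: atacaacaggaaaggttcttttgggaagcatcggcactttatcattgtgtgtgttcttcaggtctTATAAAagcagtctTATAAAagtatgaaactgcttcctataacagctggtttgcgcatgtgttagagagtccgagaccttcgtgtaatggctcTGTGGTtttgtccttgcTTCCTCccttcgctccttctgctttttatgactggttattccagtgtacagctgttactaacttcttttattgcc
Tnfsf14, chr17:57194182-57194431, minus strand: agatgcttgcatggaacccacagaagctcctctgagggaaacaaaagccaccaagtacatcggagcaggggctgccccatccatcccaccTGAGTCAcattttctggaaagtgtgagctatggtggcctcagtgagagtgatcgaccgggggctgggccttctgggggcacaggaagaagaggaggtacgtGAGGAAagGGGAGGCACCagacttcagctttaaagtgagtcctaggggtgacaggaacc
Tlr9, chr9:106222348-106222597, plus strand: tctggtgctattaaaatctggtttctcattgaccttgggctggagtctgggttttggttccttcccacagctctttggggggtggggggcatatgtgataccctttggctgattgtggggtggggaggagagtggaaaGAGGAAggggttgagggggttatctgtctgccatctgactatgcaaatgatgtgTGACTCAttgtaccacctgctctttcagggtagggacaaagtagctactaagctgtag
Cx3cr1, chr9:120068297-120068546, minus strand: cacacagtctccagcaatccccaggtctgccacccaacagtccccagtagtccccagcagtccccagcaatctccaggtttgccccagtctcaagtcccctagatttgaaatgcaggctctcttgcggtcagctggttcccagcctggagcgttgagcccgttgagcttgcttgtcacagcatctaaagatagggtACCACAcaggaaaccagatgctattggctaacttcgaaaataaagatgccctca

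The capitals showed PU.1 letters in the windows of Csf2rb2, Dennd1b, Tnfsf14 and Tlr9, and AP-1 letters in those of Tnfsf14 and Tlr9. Csf2rb2 and Tnfsf14 also carried STAT and NF-kB letters respectively, Armh4 carried NF-kB letters alone, Cx3cr1 RUNX letters alone, and Dennd1b RUNX letters with 2 TATA boxes. Over the 250 upstream bases of the 65 windows, PU.1 letters stood in 25 (38.5%), against 23.4% of all windows, 23.1% of the 78 windows at regions of the old top lists alone and 22.1% of the 11100 windows at regions shared by all 6 libraries. C/EBP letters stood in 11 of the 65 (16.9%), against 9.62%, 12.8% and 7.27% of these 3 sets in the same order, and STAT letters in 9 (13.8%), against 7.05%, 8.97% and 5.71%. NF-kB letters stood in 15 (23.1%), against 17.8%, 28.2% and 22.8%, so they were more frequent in the old windows and about as frequent in the shared ones. AP-1 letters stood in 5 (7.69%), against 6.78%, 14.1% and 4.32%, again with the highest share in the old windows. RUNX letters stood in 10 (15.4%), against 13.9%, 11.5% and 10.5%, and IRF letters in 3 (4.62%), against 2.99%, 1.28% and 2.55%. TATA boxes stood in 6 (9.23%), against 12.4%, 3.85% and 5.31%. E-box letters stood in 2 (3.08%), against 6.06%, 2.56% and 9.01%, and CRE letters in 0, against 1.56%, 0% and 3.10%. These are matches of short letter strings, given as a description; several windows share a gene, and no factor's binding was measured.

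Each printed window had its own region. Csf2rb2, which encodes a beta subunit of the interleukin-3 receptor, lay at chr15:78305562-78305973, where the best peak ranked 30148, 21211 and 27577 in young libraries 1 to 3 and 55892, 57694 and 55902 in old libraries 1 to 3. Csf2rb2 has the close copy Csf2rb beside it, so reads could be split between them and this region is uncertain. The Armh4 region ranked 26706, 30292 and 27411 in young and 66383, 51689 and 75128 in old. At Dennd1b, an exchange factor for Rab GTPases, the ranks were 33915, 28313 and 34067 against 51906, 66965 and 68723. At Tnfsf14, which encodes the cytokine LIGHT, they were 25173, 29010 and 34241 against 57604, 51237 and 54972. The best old peak at Armh4, Dennd1b and Tnfsf14 lay within 55000, near the top list. Tlr9, the endosomal sensor of unmethylated CpG DNA, ranked 37750, 40389 and 43656 in young and 65172, 65190 and 64180 in old. Cx3cr1, the fractalkine receptor, ranked 36169, 49186 and 41673 in young and 86326, 62418 and 90290 in old, with young library 2 close to the limit. The old ranks of Tlr9 lay close together, whereas those of Cx3cr1 were spread.

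One further region, at chr8:84207826-84208100 and nearest to the gene Zswim4, lay 418, 572 and 715 bp from the hairpins of Mir23a, Mir27a and Mir24-2, a microRNA cluster; it was chosen after its values were seen. The mature sequences are given in RNA letters with the seed, bases 2 to 8, in capitals.
mmu-miR-23a-3p: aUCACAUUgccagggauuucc
mmu-miR-27a-3p: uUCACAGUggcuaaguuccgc
mmu-miR-24-3p: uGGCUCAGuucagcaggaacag
The 3 seeds are different, so the cluster does not form 1 seed family. The region ranked 47968, 46659 and 38417 in young and 82603, 55145 and 92103 in old, which puts young library 1 and young library 2 just inside the top list and old library 2 nearest to it.

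Over the 1716 regions, the best peak had a median rank of 38230, 39112.5 and 39246.5 in young libraries 1 to 3, and of 62603.5, 67886.5 and 68971 in old libraries 1 to 3. Few were among the very strongest young peaks: the weakest of the 3 young ranks was 15913 at best, had a median of 44436.5, and was within 25000 in 19 regions and within 40000 in 422 (24.6%). On the old side the best of the 3 ranks had a median of 56961.5, and in 663 regions (38.6%) it was within 55000, close outside the top list. The median fold enrichment over local background, as the authors' caller gave it, came to 5.97, 5.09 and 6.25 over the young and 4.87, 3.95 and 3.96 over the old libraries. All 3 young folds exceeded all 3 old folds in 1157 regions (67.4%, against 10.8% of all merged regions), and the folds of the ages overlapped in the rest; the rule used these libraries, so nothing is read from that share. Covered length inside the regions separated the ages less often: the medians were 330, 295 and 340 bp in young and 291, 238 and 235 bp in old, and all young lengths exceeded all old lengths in 490 regions (28.6%, against 12.5% of all). Young top peaks alone set the bounds of the regions, and the lengths were not scaled between libraries. Nothing is therefore read from the lengths either.

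**Figure D1:**
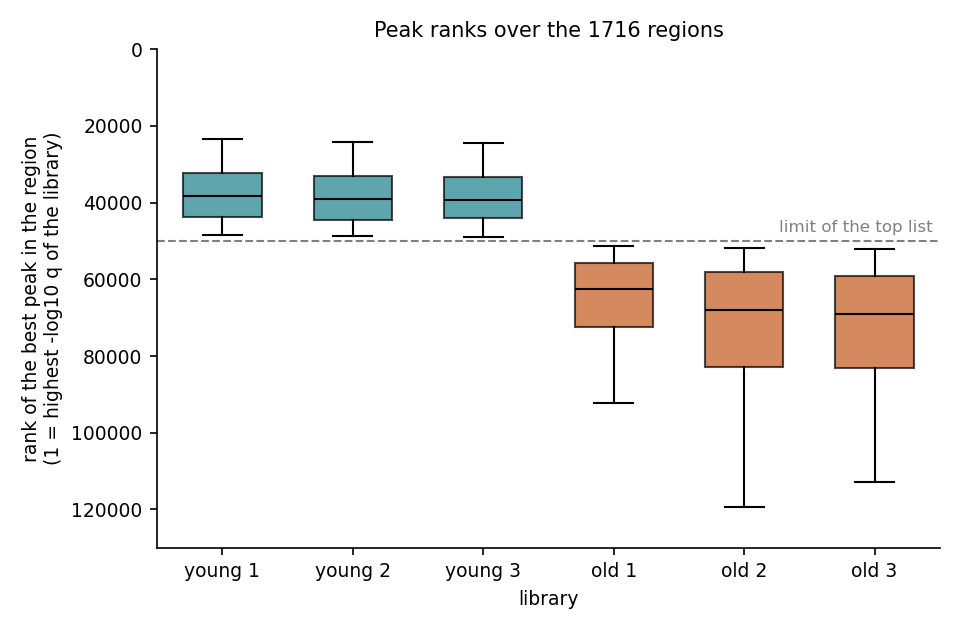
Rank of the best peak in each of the 1716 young strong-peak regions, by library (y axis inverted, rank 1 is the highest −log10 q; boxes give quartiles with the median, whiskers the 5th to the 95th percentile; teal young, orange old). The dashed line is the limit of 50000 used to choose the regions, so the separation is set by the rule; the old medians lie between 62603.5 and 68971, not far outside it.

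The libraries differed in ways that touch these ranks. The deposited lists held 223018 to 254410 peaks in young and 215947 to 245667 in old, and the −log10 q at the limit came to 8.86, 6.71 and 9.96 for young libraries 1 to 3 and to 9.53, 5.72 and 6.47 for old libraries 1 to 3. Old library 1 had a limit like those of young libraries 1 and 3, and it also held the best median old rank; young library 2 was nearer to old libraries 2 and 3. The part of these differences in the selection was not tested. Of all protein-coding genes, 51.5% to 52.6% had a top peak at a gene end. Of 14 macrophage markers 12 to 13 had one in every library (85.7% to 92.9%), with 5 to 6 of 20 B-cell, 4 to 7 of 25 T- and NK-cell, 4 of 18 neutrophil and 1 to 4 of 19 endothelial markers. Dendritic cell markers, with 7 to 9 of 17, and stem and progenitor markers, with 9 to 10 of 19, were near the share of all genes. Markers of mesenchymal stroma and osteoblasts had one in 15 to 17 of 31 in young and 17 to 18 of 31 in old (48.4% to 58.1%), also near that share. Monocyte markers had one in 2 to 4 of 13, mast cell and basophil in 1 to 3 of 12, and erythroid and megakaryocyte in 4 to 6 of 21. B-cell Ms4a1 and Pax5, T-cell Cd3e and neutrophil Ly6g and Elane had none in any library, while other markers of these lists did.

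The limit of 50000 decided single memberships. Just inside it, the region at Slc2a6 had a weakest young rank of 50000, and one at Samd8 had an old rank of 50002. Just outside it, a region nearest to Ror2 was left out by an old library 1 peak ranked 49993 and one nearest to Cnksr3 by a young library 2 peak ranked 50009. In all, 2076 regions had a top peak in all 3 young libraries and in exactly 1 old one, and 2422 had one in 2 young libraries and in no old one. With the 25000 strongest peaks per library the same rule gave 1023 regions, of which 19 overlapped a region described here; with 100000 it gave 2681, overlapping 15 of the 1716. The rule itself sets this low overlap. A region stays at 25000 only if all young ranks are within 25000, and at 100000 only if no old rank is within 100000. Gene counts at these limits, given below, thus rest mostly on other regions and are no check of the counts at 50000. Ranking by fold enrichment gave 1660 regions, and 498 of the 1716 (29.0%) overlapped one of them.

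The 20 regions whose weakest young rank was best ran from 15913 to 25522 in that rank, while their best old ranks began at 50041. Their folds were 4.25 to 9.78 in young and 2.93 to 5.92 in old, and within each of the 20 regions all young folds exceeded all old folds. Of the 20, 12 lay inside a gene and none at a gene end.

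The genes of the 20 were of varied function, and no list was made for them. Osbpl1a, of the oxysterol-binding family, ranked 15110, 16060 and 19398 in young and 60968, 54329 and 59916 in old. Mvb12b, a subunit of the ESCRT-I sorting complex, ranked 18738, 20845 and 13817 in young and 88211, 76475 and 62217 in old, with folds of 8.18, 6.70 and 9.78 against 4.52, 3.99 and 4.43. Vps45, which acts in vesicle fusion, had 2 regions, the first at 17173, 18070 and 21773 against 76747, 73399 and 98212. Bicd2, an adaptor of the dynein motor, ranked 18840, 21952 and 21465 against 53097, 55650 and 54213. The Mvb12b region and the first Vps45 region were thus well outside the old top lists in each old library, and Bicd2 was close to the limit in all 3. The second Vps45 region, not among the 20, ranked 42870, 45208 and 34051 in young and 52049, 180568 and 87916 in old. It was close to the limit in old library 1.

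A stretch of chromosome 6 held 3 of the 20 regions. Of the 2 inside Umad1, that at chr6:8412754-8413247 ranked 21524, 20298 and 22431 in young and 87391, 86866 and 88948 in old, the old libraries lying close together; the other, at chr6:8419881-8420601, ranked 20275, 22948 and 18754 against 65255, 73549 and 60643. The next gene, Glcci1, a glucocorticoid-induced transcript, had one 13.4 kb away at chr6:8495103-8496180, ranked 19272, 22954 and 21318 in young and 56759, 59404 and 56408 in old. These regions lie within 100 kb of each other and are not independent.

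For the actin-binding protein drebrin, Dbn1, the ranks were 19765, 23022 and 19132 in young and 57475, 54315 and 60473 in old. For Cdyl, a chromodomain protein of repressive chromatin, they were 23028, 15194 and 23359 against 69462, 51665 and 68606. Fcrls, a scavenger receptor of the Fc-receptor-like family with its region 31.1 kb away, ranked 24694, 25522 and 24655 in young and 62951, 93436 and 83451 in old, a narrow young and a wide old range. Hsf2bp, Hspa14, Frmd4b, Fbxl17, Camkmt and Rassf6 had young ranks from 14255 to 24609 and old ranks from 50041 to 73446. The next genes in this order were Serbp1, Bbs12, Nfe2l2, Rftn1 and Tmem260. Nfe2l2, the antioxidant transcription factor NRF2, had a region 28.5 kb away that ranked 25597, 21804 and 26264 in young and 55371, 88760 and 92353 in old. Rftn1, which encodes the lipid raft protein raftlin, had 2, the first 1.9 kb away at 26385, 19324 and 25088 against 56136, 65176 and 66299.

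**Figure D2:**
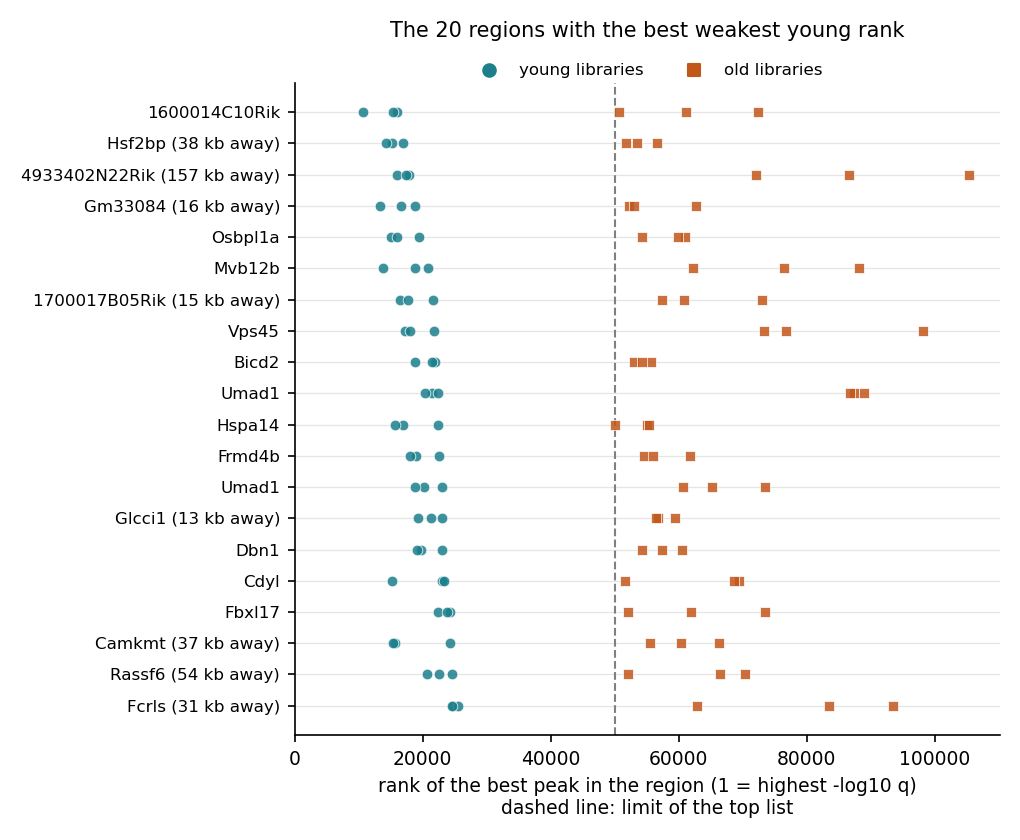
Rank of the best peak in each library (x axis, rank 1 is the highest −log10 q) for the 20 regions with the best weakest young rank, labelled by nearest protein-coding gene and, where the region lies outside it, the distance; circles are young and squares old libraries. Young ranks reach at most 25522 and old ranks start at 50041; the old libraries spread widely at Vps45 and Fcrls and narrowly at Bicd2 and the first Umad1 region.

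By position, the young strong-peak regions lay mostly away from gene ends. Only 105 (6.12%, exact 95% interval 5.03% to 7.36%) were within 1 kb of an end of a protein-coding gene, 869 (50.6%) were inside a gene body and 742 (43.2%) lay outside genes. Regions of the old top lists alone had nearly the same make-up, at 6.75%, 50.4% and 42.9%. Regions shared by all 6 libraries were at a gene end in 29.7%, and those with a top peak in 1 to 5 libraries in 9.65%, so scarcity at gene ends was not particular to the young side. The young regions were 386 bp wide in the median (47 to 1716 bp), against 498 bp for the old side and 716 bp for regions in all 6. Chromosome X held 14 of its 1018 merged regions in the set (1.38%, exact interval 0.754% to 2.30%), below the range of 2.08% to 3.09% over the autosomes. The interval reaches into that range. Of the same 1018 regions, 31 (3.05%) were of the old top lists alone, within the 2.71% to 4.67% of the autosomes. The regions were scattered: the median distance to the next was 621588 bp, and 55 neighbouring pairs lay within 10 kb.

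**Figure D3:**
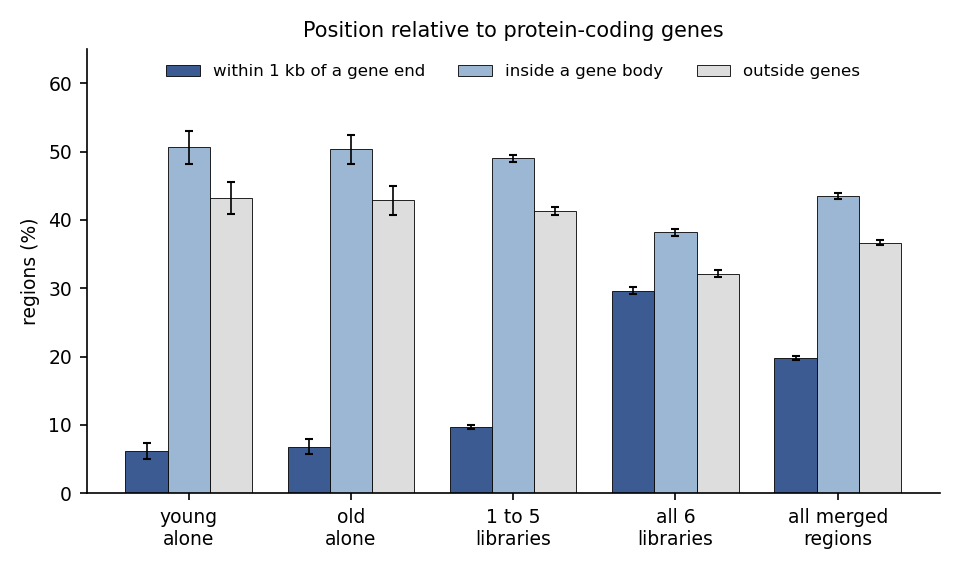
Share of regions (y axis, %) within 1 kb of an end of a protein-coding gene, inside a gene body or outside genes, for 5 sets of merged regions; error bars are exact 95% binomial intervals, for counting error only. The gene-end share is 6.12% in the young set and 6.75% in the old set, and 29.7% in regions shared by all 6 libraries.

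Within 100 kb of a protein-coding gene lay 1575 of the regions, and their nearest genes numbered 1365, which is 8.76% of the 15588 genes nearest to any merged region. These genes were long, with a median of 49.4 kb against 24.1 kb for all, and had a median of 6 merged regions each against 3. Longer genes with more regions have more chances to be counted. Of the 1365 genes, 248 were also nearest to a region of the old top lists alone, which is 18.2% of the young and 15.6% of the old genes. Among all 15588 genes nearest to a merged region, 1588 (10.2%) were nearest to such an old region, a lower share than among the young genes.

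Repeated hits fell on 31 genes with 3 or more regions, 98 regions in all. Of the 31, 24 had no region of the old top lists alone and 7 had 1. Among all 1365 nearest genes, 248 (18.2%) had such an old region, so its absence was not particular to the 31. Most were long, with 23 over 100 kb and a median of 145 kb. The 5 genes with 4 regions were Acoxl, Chsy1, Cux1, Tent5c and Tex2. At Chsy1, a chondroitin synthase, the first region ranked 35778, 35092 and 24294 in young and 73908, 63959 and 90722 in old, and the last ranked 49205, 47967 and 46017 against 99274, 120593 and 94318. At Tent5c, a poly(A) polymerase, all 4 regions lay in the 25.2 to 47.7 kb beside the gene, the first at ranks 24836, 32608 and 30780 against 60497, 72902 and 64700. Cux1, a homeobox transcription factor, had 4 of its 32 merged regions in the set, and its first ranked 29121, 38853 and 28430 against 50323, 55001 and 55979, near the limit in old library 1.

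Among the genes with 3 regions were transcription and chromatin factors. Mef2a, Foxp1, Bach2, Nfatc2, Klf7 and Creb5 encode DNA-binding factors and Zmynd8 a reader of histone marks. Klf7 had 3 of 11 merged regions, its first 11.8 kb away at ranks 32089, 29391 and 32565 in young and 52797, 69784 and 61063 in old, whereas Foxp1 had 3 of 51. Cd74 was the shortest of the 31 genes, at 8.80 kb with 3 of its 5 merged regions. Ctsc, which encodes the protease cathepsin C, had 3 of 9, all 11.7 to 70.2 kb outside the gene, the nearest at ranks 27642, 30441 and 23991 against 67786, 76658 and 74736.

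Genes that mark macrophages were neighbours of more young than old regions. The macrophage identity list had 9 young strong-peak regions among its 170 merged regions (5.29%, exact interval 2.45% to 9.81%), nearest to 9 of the 31 genes that had any, against 1 region of the old top lists alone (0.588%). The interval includes the 2.59% of all merged regions. With 25000 or 100000 peaks per library, 4 genes of this list had such a region.

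The members named from that list were a secreted enzyme and several surface receptors. Lyz1, a lysozyme gene, ranked 26555, 22591 and 28585 in young and 52617, 70769 and 68047 in old at 2.49 kb from the gene. The nearest listed start site lay 2689 bp from this region and is not at an end of Lyz1. Which gene that start site belongs to was not tested, so the link of the region to Lyz1 is by position alone and uncertain. Mrc1, the mannose receptor CD206, ranked 38494, 39652 and 26975 against 61403, 56613 and 53231 at 4.72 kb. Mertk, a receptor for the uptake of dead cells, ranked 36804, 34212 and 40624 against 55082, 55453 and 52903, close to the limit in all 3 old libraries. The scavenger receptor gene Msr1 had a region in its body with ranks of 34442, 30628 and 43706 against 66481, 73756 and 67430. Siglec1, the gene of the CD169 used to type the cells, had 1 region 8.18 kb away, ranked 33243, 49393 and 45141 in young and 57738, 61395 and 53096 in old. Both Msr1 and Lyz1 were far from the limit in at least 2 old libraries, and Siglec1 was near it in young library 2 and old library 3. Adgre1, the gene of F4/80, had 2 merged regions, both with a top peak in all 6 libraries, and no young strong-peak region.

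Antigen presentation by MHC class II rested on 2 genes. The list had 5 of 90 merged regions in the set (5.56%, exact interval 1.83% to 12.5%) and 0 in the old one, where 3 counts would be 3.33%. Cd74, the invariant chain that escorts MHC class II, had 3 of these regions, at chr18:60795162-60795411 and at 2 sites inside the gene. That first region ranked 31123, 31558 and 44349 in young and 62832, 72847 and 88181 in old; the site at chr18:60805606-60806019 ranked 44871, 42357 and 34534 against 51433, 65578 and 89865, and its folds of 3.93, 3.86 and 4.62 overlapped the old folds of 3.99, 3.38 and 3.06. Marchf1, the ubiquitin ligase that removes MHC class II from the surface, had 2 regions. The one in its body ranked 31180, 36055 and 30413 against 57976, 69122 and 98412. The one over a promoter window ranked 49208, 24202 and 30105 against 54078, 61870 and 62896, with young library 1 at the edge of its top list. No other gene of the list had one.

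Signalling from Toll-like receptors to NF-kB had 10 of 234 merged regions (4.27%, exact interval 2.07% to 7.72%) and 2 in the old set, nearest to 7 genes, which became 3 with 25000 and 7 with 100000 peaks per library. Tab2, an adaptor that activates the kinase TAK1, held 3 of them. The Tab2 region at chr10:8021363-8021632, 65.1 kb outside the gene, ranked 30585, 34404 and 22268 in young and 85689, 121843 and 122524 in old, a separation wider than at most regions, with folds of 7.46, 5.88 and 8.82 against 4.61, 3.38 and 3.39. The Tab2 region 53.5 kb away ranked 32668, 40746 and 45226 against 87671, 80929 and 88101. The one in the Tab2 gene body ranked 43355, 47660 and 43539 against 55696, 132398 and 80780. Old libraries 2 and 3 were thus far outside the top list at all 3 Tab2 regions. Nfkbia, the inhibitor IkB-alpha, with its region 13.4 kb away, ranked 37543, 37055 and 34616 against 54440, 50199 and 67817, close to the limit in old library 2. Tnip3, which encodes a binding partner of the inhibitor A20, had 2 regions, that in its body at ranks of 41980, 46061 and 41431 against 76807, 62619 and 95551.

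**Figure D4:**
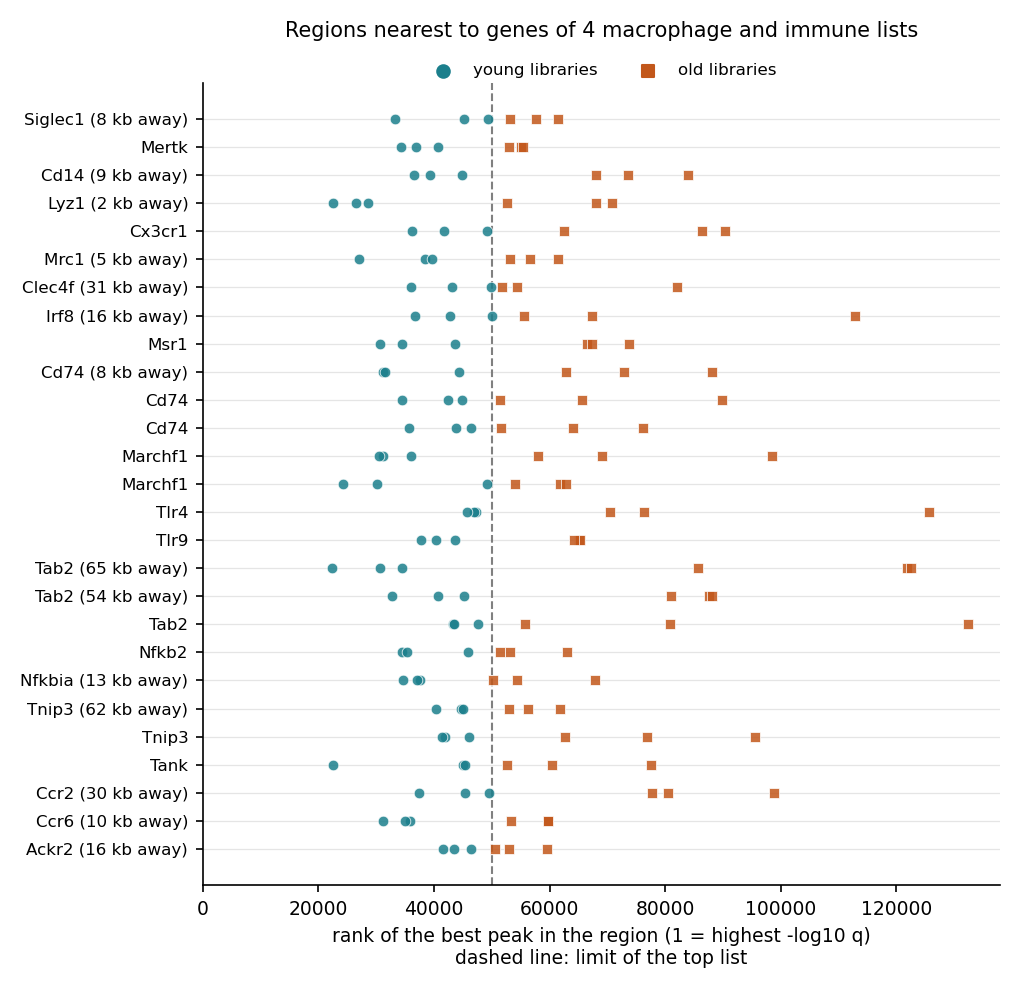
Rank of the best peak in each library (x axis, rank 1 is the highest −log10 q) for 27 regions nearest to genes of 4 lists (macrophage identity, MHC class II, NF-kB and Toll-like receptor signalling, chemokine receptors); circles are young and squares old libraries, and distances are given for regions outside the gene. In 10 of the 27 all old ranks exceed 60000, as at both Tab2 regions outside the gene, while Mertk, Ackr2 and Nfkbia lie close to the dashed limit. That share is near the one of all 1716 regions, where 632 (36.8%) have all old ranks beyond 60000.

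Chemokines and their receptors each had a few. The chemokine list had 6 of 123 merged regions (4.88%, exact interval 1.81% to 10.3%; 3 in the old set), each nearest to another gene. Cxcl1, a neutrophil attractant, had one 37.7 kb away that ranked 28134, 29334 and 30960 in young and 75843, 103346 and 109628 in old, all old ranks being well outside the top list. Ccl28 ranked 27646, 20422 and 16951 against 52434, 72349 and 52537 at its gene end. Ccl6 ranked 40066, 35378 and 38768 against 53240, 113787 and 84734 over its promoter. Old library 1 came near the limit at both of these genes. Ccl11, the eosinophil attractant eotaxin, ranked 41603, 37423 and 38144 against 72947, 70523 and 78799 at 17.9 kb. The receptor list had 5 of 105 (4.76%, exact interval 1.56% to 10.8%; 1 in the old set), among them regions at Ccr2, Ccr6, the decoy receptor Ackr2 and Cx3cr1. Ccr2, a receptor that monocytes use to leave the marrow, ranked 37397, 49562 and 45434 against 77720, 98787 and 80536 at 30.1 kb. All 3 old ranks of Ccr2 were far outside the top list, and young library 2 was at the edge of its own. Ccr6 ranked 31116, 35909 and 34984 against 59735, 53279 and 59744 at 10.3 kb. Cxcl13 and Cxcr5 had 3 merged regions each and none in the set; the nearest one lay 2819 kb from Cxcl13 and 272 kb from Cxcr5.

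Receptors that take up particles had 6 of 134 merged regions (4.48%, exact interval 1.66% to 9.49%) and 0 in the old set. For these receptors, as for the MHC class II, NF-kB, chemokine and chemokine receptor lists, the interval includes the 2.59% of all merged regions. The 6 genes became 12 with 25000 and 4 with 100000 peaks per library, and the 5 of the chemokine receptor list became 2 and 4. Besides Mrc1 and Msr1 these included Clec4n, the fungal sensor Dectin-2, which ranked 27030, 24557 and 24459 in young and 55866, 58373 and 65201 in old. Clec10a, a galactose-type lectin with its region 20.4 kb away, was at 24722, 29448 and 42173 against 68260, 68847 and 79381. The alternative activation list had 4 of 120 merged regions (3.33%, exact interval 0.916% to 8.31%) and 2 in the old set. That interval also includes the 2.59% of all merged regions. The list shares Mrc1 and Clec10a, already counted above, and adds Arg1 and Il4ra. Arg1, the arginase of such macrophages, ranked 24881, 25189 and 30967 against 55882, 93504 and 61687 at 22.8 kb from the gene. Il4ra, the interleukin-4 receptor chain, ranked 25185, 21699 and 35044 against 52192, 53365 and 50790. All 3 old ranks of Il4ra were within 55000.

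Regulators of small GTPases and actin, the list with the most merged regions, had 29 of 799 (3.63%, exact interval 2.44% to 5.17%; 18 in the old set). That interval includes the 2.59% of all merged regions. They were nearest to 19 of 67 genes (28.4%), against 8.76% of all genes with a merged region, and to 12 with 25000 and 28 with 100000 peaks per library. Tmod1, which caps actin filaments, had 2, one ranked 29770, 24405 and 32060 against 50560, 50363 and 78904 and one ranked 22305, 28623 and 37266 against 72958, 58525 and 132523. Vav3, a guanine nucleotide exchange factor, had 3, the first at 33018, 28102 and 25734 against 52978, 73483 and 60283. The Rac exchange factor Tiam2 had one at 28601, 34704 and 29787 against 69103, 67115 and 65139, the old libraries lying close together. Transporters of organic ions had 9 of 131 (6.87%), but the old set had 8 of the same 131 (6.11%), and integrins and adhesion genes had 12 of 280 (4.29%) against 15 (5.36%). In the transporter list, Slc16a10, a carrier of aromatic amino acids, held 3, the first at 40752, 21914 and 26123 against 64488, 51611 and 70394.

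Lineage transcription factors had 14 of 549 merged regions (2.55%), the same number as in the old set and close to the 2.59% of all regions. Etv6 ranked 26329, 32142 and 33462 in young and 50860, 64287 and 50059 in old. Runx3, with its region 1.08 kb away, ranked 31727, 28214 and 36090 against 54988, 64459 and 54671, both within 55000 in 2 old libraries. Interferon response genes had 6 of 171 on both sides. There Ddx58, the RNA sensor RIG-I, ranked 26282, 33438 and 34563 against 69722, 51189 and 60390 at 4.35 kb. Irf1, with no region of the set nearer than 4.72 kb, ranked 48051, 44238 and 38599 against 65856, 56296 and 99468. Inflammatory cytokines and enzymes had 4 of 173 (6 in the old set), with Acod1, the itaconate-forming enzyme, at 42136, 28741 and 44181 against 68411, 66355 and 52581.

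Other lists had none, or a share near or below the 2.59% of all merged regions. AP-1 and early response genes had 0 of 193 merged regions, where 3 counts would be 1.55%, against 5 in the old set, but 5 of these genes had such a region with 25000 and 5 with 100000 peaks per library. Inhibitory and immune synapse receptors had 0 of 153 against 3, but 5 genes with 25000 and 5 with 100000 peaks. B-lineage niche factors had 0 of 68 against 3, but 2 genes with 25000 and 3 with 100000. These zeros thus describe the limit of 50000 alone. The other limits chose mostly other regions, so the counts there do not check the zeros. Receptors for colony-stimulating factors and cytokines had 8 of 293 (2.73%) against 21 (7.17%). Markers of mesenchymal stroma and osteoblasts had 3 of 218 (1.38%) against 11 (5.05%), with Pdgfrb at 34010, 26847 and 32572 in young and 66533, 63058 and 65426 in old. B-cell, neutrophil, mast cell and stem cell markers had 0 of 55, 24, 21 and 82, but 2, 1, 3 and 4 genes of these lists had such a region with 100000 peaks. The exact intervals of these marker zeros reach 6.49%, 14.2%, 16.1% and 4.40%, all above the 2.59% of all merged regions. Nothing is therefore read from them. The part of other cells in the cultures was not tested. Because cells share a library, fewer cells of a type and less open DNA per cell cannot be told apart.

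**Figure D5:**
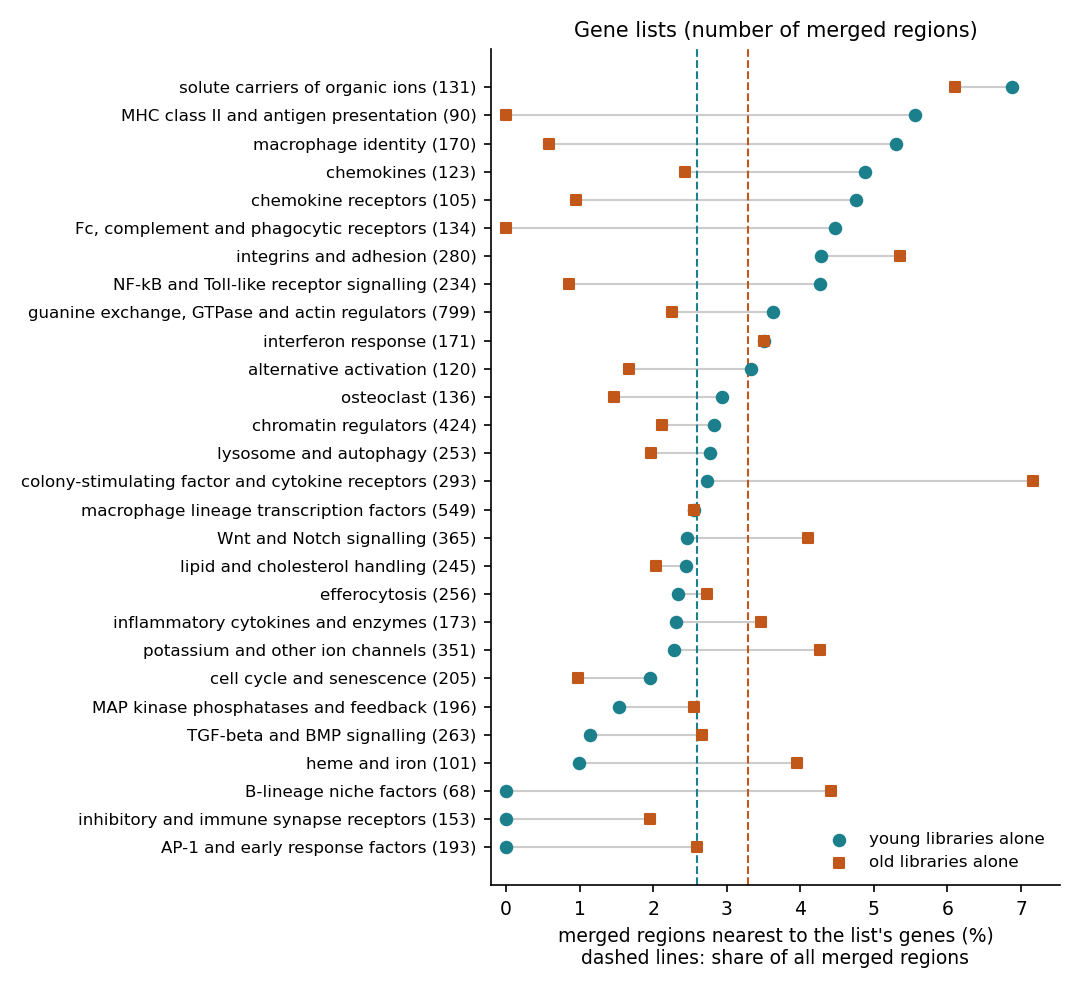
Share of the merged regions nearest to each list's genes (x axis, %; number of merged regions in brackets) that were strong in the young libraries alone (teal circles) or in the old libraries alone (orange squares), for lists with 50 or more regions. Dashed lines give the shares among all merged regions, 2.59% and 3.29%; 11 of the 28 lists have their circle right of the first and their square left of the second line, among them macrophage identity, chemokines, osteoclast, lysosome and chromatin regulators. The exact intervals of the young shares of these named lists all include 2.59%, and lists share genes. Heme and iron, Wnt and Notch, ion channel, inflammatory and B-lineage niche lists lie the other way on both lines.

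Of the genes that an earlier look at these peaks had singled out, Dpp10, which encodes a subunit of potassium channels, had 1 region ranked 24992, 22205 and 36570 in young and 54948, 104413 and 113564 in old. Sinhcaf, of the SIN3-HDAC complex, had 2, that over its promoter at 47460, 34960 and 48313 against 63164, 61989 and 57612. Slc22a15 had 1 over its promoter at 42701, 49843 and 42942 against 56723, 70317 and 58809. Dpp10 was far from the limit in old libraries 2 and 3, and both promoter regions were near it in young libraries. Dusp16, a MAP kinase phosphatase, had 1 at 39715, 27272 and 35220 against 53366, 66571 and 99363, and the potassium channel gene Kcna3 had none.

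The rest of each gene locus, the gene with 10 kb on each side but without its young strong-peak regions, was measured as base pairs covered by deposited peaks, scaled to the mean library total. Over 16922 genes with a mean of 500 bp or more, the median log2 ratio of old to young was 0.01, and all old values lay below all young ones in 8.29% and above them in 8.63%. The 1313 genes nearest to a young strong-peak region had a median of -0.02, with all old values below in 168 (12.8%) and above in 80 (6.09%). For the 173 genes with 2 or more such regions the median was -0.06, with 31 (17.9%) below and 10 (5.78%) above. Outside the regions themselves, then, the median covered length differed little. These values come from the same libraries as the rule and are a description.

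Single loci departed further from that median. Ctsc had a log2 ratio of -0.52 and Mamdc2 of -0.42 in the rest of the locus, and at both all old values lay below all young ones. Dpp10 had -0.65, from 1243, 1567 and 2348 bp in young and 1037, 898 and 1144 bp in old. The macrophage and MHC class II genes described above went both ways. Mrc1 had -0.29 and Mertk -0.16, with all old values below all young ones at both, and Msr1 had -0.03. Lyz1 had 0.13. Cd74 had 0.12, from 1009, 848 and 984 bp in young and 1082, 1096 and 969 bp in old, and Siglec1 had 0.10, from 1902, 2580 and 1950 bp against 2496, 2387 and 2065 bp. At Lyz1, Cd74, Siglec1 and Msr1 the ages overlapped.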

How the data were processed

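Open chromatin was measured by Omni-ATAC in 3 young and 3 old macrophage libraries, with paired-end sequencing of 125 bp over 4 lanes, per the labels. Tools in the submitters' processing notes are MACS2 2.1.0.20140616, Bowtie2 2.2.6, Picard, SAMtools, cutadapt 1.14 and Trim Galore 0.4.4, and mm10 is the build; roles and order are absent there. The authors deposited 1 broad peak list per library, so replicates were not pooled. For each peak the authors' deposited values are a score, a fold (ratio over local background), a −log10 p and a −log10 q; they describe single peaks and served to rank peaks within a library. How duplicates and the transposase shift were handled is not given in the sources used here, nor is read depth. Since depth is unknown, a peak missing from a list means only that none was called.

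Peaks were ranked by −log10 q (ties by chromosome and start) and merged at 1 bp overlap. Gene spans, promoter windows and microRNAs are RefSeq's for GRCm38.p6 (the same primary chromosomes as mm10). Of 21627 protein-coding genes used, 17273 had a promoter window, and the promoter table held none for chromosome 18. The nearest gene is that with the shortest distance to its span, up to 100 kb. The span table gives no exons, so introns and exons were not separated. Ratios of covered length used a pseudocount of 200 bp. The 38 gene lists hold 1180 genes, of which 1174 matched. Python 3.11.15, numpy 2.4.6, pandas 2.3.3, scipy 1.17.1 and matplotlib 3.10.9 were used; the steps were tested on simulated peak lists.

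The regions and gene lists were chosen with earlier results of these data known, and no test was made. Genes were named by rule: the first 20 nearest genes by weakest young rank (no gene models), genes with 3 or more regions, up to 4 per list, Cxcl13, Cxcr5, Adgre1, Siglec1 and genes singled out by earlier results. A part of the rule for regions with no old peak named none. Genes outside the rule are those at the edges of the limit, with printed promoters, or members of a list of 5 or fewer. A region of the chemokine receptor list is not reported here.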

Additional observations from a re-analysis of the deposited data

How the results depend on the processing

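The limit on peak strength set which regions were chosen. The number of regions, 1716, became 1023 with the 25000 strongest peaks per library, 2681 with 100000 and 817 with 1 threshold of a −log10 q of 10; it was 0 when no old peak of any strength was allowed. It was 1660 when ranked by fold, 1606 when peaks within 500 bp were merged and 1352 without regions that had a top old peak within 2 kb. Leaving out 1 library loosens the rule, so a higher number follows from the rule. The number was then 2147 to 2817. It passed 1.5 times 1716 in 3 cases: 2740 without young library 2, 2577 without young library 3 and 2817 without old library 1. The share at gene ends, 6.12%, was 9.38% with 25000 peaks, 5.52% with 100000, 4.46% by fold, 3.73% with a window of 500 bp and 10.1% with 2 kb, and 5.95% to 8.03% with 1 library left out. Gene bodies held 47.1% with 25000 and 47.1% with 100000 peaks and 46.3% by fold, and 48.6% to 51.9% with 1 library left out. The share with a peak in all old libraries was 100% with 25000 peaks, 71.8% with 100000 and 97.8% by fold, and 99.2% to 99.9% with 1 library left out. The median width was 484 bp with 25000 and 296 bp with 100000 peaks, and 332 to 396 bp with 1 library left out. The rest of the locus at nearest genes had a median log2 ratio of -0.16 without scaling, when that of all genes was -0.14, and -0.02 to -0.01 with 1 library left out. Listed genes near a region numbered 144, and 125 to 202 under the other limits, 134 by the nearest gene end and 155 without the 100 kb limit, which was part of the rule from the start. These totals need not hold the same genes. Of 140 named genes with a region, 41 had one with 25000 peaks, 53 with 100000, 66 with the 1 threshold and 69 by fold, which need not be the same region. With peaks within 500 bp merged 137 kept one, and 125 without regions that had a top old peak within 2 kb. All 140 kept one with 1 library left out, but the rule then asks for less, so this is no check. The settings for the rest of the locus were chosen after seeing the data. No paired analysis was possible because no result comes from a test. The cause of these shifts was not tested.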

Other observations

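In 15 regions no old library had a peak ranked 100000 or better, although each was in the top 50000 of every young library; these were chosen after their values were seen. The region inside Camsap2, which encodes a protein that binds microtubule minus ends, ranked 35044, 39087 and 36826 in young and 112456, 153394 and 149757 in old. The one inside Igf2bp3, which encodes an RNA-binding protein, ranked 45444, 43117 and 38910 against 133428, 154671 and 139841. Inside Cpq and near Pold2, 6.37 kb away, old library 2 had no peak, and the old ranks were 110156 and 154973 at Cpq and 184446 and 149869 at Pold2. At the other end, 364 regions (21.2%) had a top peak of an old library within 2 kb, so the strongest old peak of that neighbourhood lay beside the region.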
